A study of Mus musculus with 6 samples.

Results

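The genes of cholesterol and fatty acid metabolism described here are 40 named genes that make, sense, move, take up or export cholesterol or, in 5 cases, make fatty acids. They were found by gene symbol among the 25939 genes listed for each library, and all 40 had a row. RNA was sequenced from vascular smooth muscle cells isolated from mouse aorta and cultured, with 3 libraries after 48 h of trimethylamine N-oxide (TMAO) and 3 libraries from cells labelled Control, kept for the same 48 h. TMAO is a small molecule that the liver makes by oxidising trimethylamine released by gut bacteria from dietary choline and carnitine. The sources used here do not give the TMAO dose, nor the strain, age, sex and number of the mice. Nothing in the labels says that the 3 libraries of a group came from separate animals or cultures, so the p-values speak of the variation between libraries, and that may be technical only.

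Cells make cholesterol from acetyl-CoA through mevalonate, squalene and lanosterol. When cholesterol in the endoplasmic reticulum is low, the escort protein Scap carries the SREBP transcription factors to the Golgi, where they are cut and released to switch on the synthesis genes. When it is high, the Insig proteins hold Scap back, and oxidised sterols activate the LXR receptors, which switch on the exporters Abca1 and Abcg1. In atherosclerosis, smooth muscle cells of the arterial wall can load with cholesterol and take on features of foam cells.

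Markers were read to check the label of the cells. Of 11 smooth muscle markers, 8 averaged at least 1 FPKM (sequenced fragments for each kilobase of exon, corrected for library size), led by Acta2 at 483 ± 8.68 FPKM in TMAO and 487 ± 2.79 FPKM in Control cells (SD, n = 3 each), while Tagln, Cnn1 and Myh11, markers of the contractile state, averaged under 1 FPKM. Their summed level was 787.5 to 807.4 FPKM in TMAO and 804.3 to 806.5 FPKM in Control libraries. Of 10 macrophage markers 5 averaged at least 1 FPKM, with sums of 82.96 to 89.81 FPKM in TMAO and 84.86 to 105.4 FPKM in Control libraries, mostly from Lyz2, and Ptprc and Itgam were near 0. Of 6 fibroblast markers 4 did, with sums of 55.16 to 58.1 FPKM in TMAO and 58.25 to 60 FPKM in Control libraries. Of 6 adipocyte markers Fabp4 alone did, with sums that overlapped. Of 7 endothelial markers Emcn alone did, at 12.3 ± 0.192 FPKM in TMAO and 15.8 ± 0.685 FPKM in Control cells (SD, n = 3 each, limma adjusted p = 0.0504), while Pecam1, Cdh5 and Vwf were near 0. No marker passed, and the part of other cells in the members' values was not tested. Library totals implied by the FPKM values were 14991252 to 16524834 reads in TMAO and 15015258 to 16806728 reads in Control libraries, and the tested members with whole reads had means of 109.3 (Nr1h3) to 17610 reads (Npc2).

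No member passed the test between TMAO and Control cells. Of the 40 members, 37 reached 1 FPKM in at least 3 libraries and were tested with limma on log2(FPKM + 1), and 0 had a Benjamini-Hochberg adjusted p under 0.05. Over all 11062 genes tested, 8 were called higher in TMAO cells (0.0723%) and 12 were called lower (0.108%). The smallest adjusted p of a member was 0.185, for Fdft1, by limma. In limma's unadjusted test 5 members (Fdft1, Cyp51, Fdps, Insig1 and Npc2) had p under 0.05, or 13.5% of those tested, against 13.1% of all genes. That count was 2 without TMAO 3, 2 without Control 1 and 3 with the replicate number as a block. It was 4 with median-ratio size factors and with a mean filter of 5 FPKM. It was 6 with a filter of 0.5 FPKM, with voom on recovered reads, and without TMAO 2, Control 2 or Control 3. The share of all genes was not counted under these settings. For 4 tested members (10.8%) every TMAO library lay above every Control library, against 12.4% of all genes. Every TMAO library lay below every Control library for 1 tested member (2.7%), against 6.23% of all genes. On the deposited scale these shares were near those of all genes or under them. With median-ratio size factors 5 members (13.5%) lay wholly above (Cyp51, Fdps, Hmgcs1, Insig1 and Lss), against 7.99% of all genes. On that scale 5 members (13.5%) lay wholly below (Dhcr7, Scarb1, Sqle, Srebf2 and Stard4), against 10.7% of all genes. Whether shares of so few members differ from those of all genes was not tested on either scale. In bulk RNA, fewer cells of a type and less RNA per cell cannot be told apart.

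The differences were also small in size. The log2 difference, TMAO minus Control, ran from -0.15 for Dhcr7 to 0.22 for Fdps, with a median of -0.0018, against a median of 0.02 over all genes. It was positive for 17 members (45.9%) and negative for 20, against 6638 positive of the 11062 genes tested (60%). With median-ratio size factors 12 were positive, and with quantile normalization 15. The median over all genes also turned negative there, at -0.0086 with median-ratio size factors and -0.0022 with quantile normalization. The share of all genes with a positive difference was not counted under these 2 settings. The 95% intervals of the 37 differences reached at most from -0.38 to 0.41. They lay wholly within a 1.2-fold difference on this scale for 31 members, within 1.3-fold for 36 and within 1.5-fold for all 37. The added 1 FPKM understates changes of low members, so for them these are not limits on the fold in FPKM. The Fdps difference, for example, was 0.289 with a pseudocount of 0.1 FPKM.

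**Figure D1:**
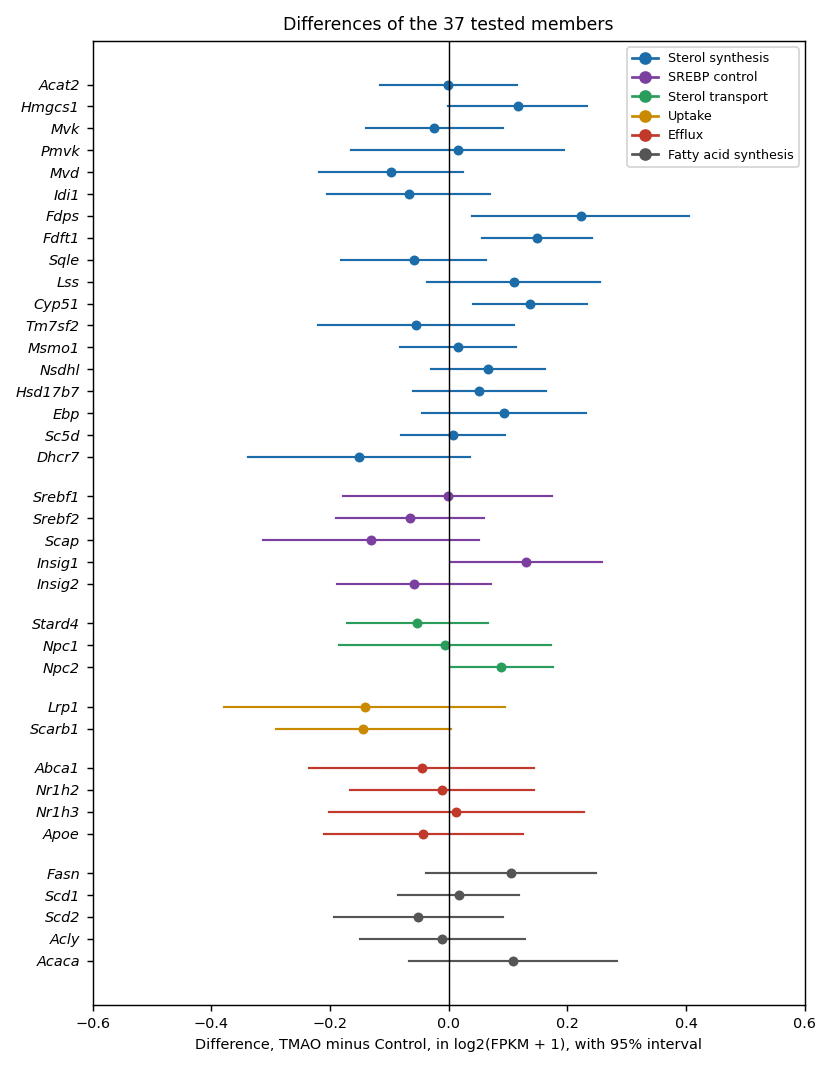
Difference between TMAO and Control cells for each tested member, in log2(FPKM + 1), with its 95% limma interval, coloured by role. Points right of 0 are higher in TMAO cells. The points run from -0.15 (Dhcr7) to 0.22 (Fdps), and no member passed the adjusted threshold.

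The 18 sterol synthesis genes cover most steps of the route from acetyl-CoA to cholesterol, and all 18 were tested. Their summed level was 791.4, 799.2 and 792.5 FPKM in TMAO libraries 1 to 3, against 776.3, 763.3 and 779.1 FPKM in Control libraries 1 to 3. The 3 TMAO sums lay above the 3 Control sums on the deposited scale, but with median-ratio size factors they overlapped, at 754.2, 806.7 and 783.9 in TMAO libraries against 791.7, 761.7 and 791.5 in Control libraries. None of the 18 passed the test. The difference was positive for 11 and negative for 7, with a median of 0.02 that became -0.02 with median-ratio size factors. Over all genes tested 60% of differences were positive, and their median of 0.02 became -0.0086 with median-ratio size factors.

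The synthesis genes with the smallest p were Fdft1, Cyp51 and Fdps. Fdft1 (ENSMUSG00000021273, chr14:63145150-63179578, minus strand, mm10) encodes squalene synthase, the first enzyme committed to sterols. It had 63.7, 64.7 and 65.0 FPKM in TMAO libraries, against 57.5, 56.9 and 59.8 FPKM in Control libraries. The TMAO values lay close together and all above the Control values, a separation lost with median-ratio size factors, with means of 64.4 ± 0.671 FPKM in TMAO and 58.0 ± 1.52 FPKM in Control cells (SD, n = 3 each). The difference was 0.15 on the log2 scale (95% interval 0.06 to 0.24, limma adjusted p = 0.185), or 11.02% of the Control mean. Exons of Fdft1 overlap those of Ctsb on the opposite strand over 18.3% of their bases, and its FPKM did not convert to whole reads with the annotated exon length, so its level is uncertain.

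Cyp51 (chr5:4081145-4104746, minus strand) encodes the demethylase that acts on lanosterol. It had 90.70, 85.49 and 90.03 FPKM in TMAO libraries, against 82.15, 81.04 and 78.53 FPKM in Control libraries. The groups did not overlap, on this scale or with median-ratio size factors, and TMAO 2 was the nearest to the Control libraries. Its difference was 0.14 (95% interval 0.04 to 0.23, limma adjusted p = 0.224).

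Fdps (chr3:89093588-89101959, minus strand) makes farnesyl pyrophosphate, the branch point between sterols and protein prenylation. It had 3.495, 2.831 and 3.297 FPKM in TMAO libraries, against 2.564, 2.729 and 2.503 FPKM in Control libraries. TMAO 2 lay just above the highest Control library and the other TMAO libraries stood further off. The difference of 0.22 was the highest among the tested members and had a 95% interval of 0.04 to 0.41 (limma adjusted p = 0.292). Fdps rested on a mean of 192.2 reads per library, and 26.7% of its annotated exon bases are shared with the overlapping gene model Gm43738 on the same strand, so reads there cannot be assigned to one of them. Its exon length in the annotation is 4208 bases against 1382 bases for the principal transcript. Its mean level was 2.90 FPKM by the deposited value and 8.84 by the principal transcript length, an alternative added after the data were seen.

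The entry step and the steps beyond squalene gave values on both sides of 0. Hmgcs1 (chr13:119690379-119708260, plus strand) encodes the synthase that makes HMG-CoA. It had 46.1, 41.4 and 44.9 FPKM in TMAO libraries, against 39.1, 41.8 and 40.9 FPKM in Control libraries. TMAO 2 lay inside the Control range, and the difference was 0.12 (95% interval -0.0005 to 0.23, limma adjusted p = 0.382). Sqle, which oxidises squalene and is a rate-controlling enzyme of the route, had 22.0, 20.2 and 20.8 FPKM in TMAO libraries, against 21.0, 22.9 and 21.8 FPKM in Control libraries. Its groups overlapped, with a difference of -0.06 (limma adjusted p = 0.708). Dhcr7, which carries out a last reduction to cholesterol, had 3.10, 2.45 and 2.64 FPKM in TMAO libraries, against 3.21, 3.22 and 2.97 FPKM in Control libraries. TMAO 1 overlapped the Control range, and the difference of -0.15 had a 95% interval of -0.34 to 0.04 (limma adjusted p = 0.489).

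The other 12 synthesis genes overlapped between the groups, with differences from -0.10 for Mvd, the decarboxylase that forms isopentenyl pyrophosphate, to 0.11 for Lss, the cyclase that forms lanosterol. Acat2, the thiolase at the start of the route, averaged 61.8 FPKM in both TMAO and Control cells, although 39.1% of its 50-base stretches are also found in Acat3, so reads may be split between them. Msmo1, a methyl sterol oxidase, stood highest of the synthesis genes at 121 ± 2.99 FPKM in TMAO cells and 119 ± 4.30 FPKM in Control cells (SD, n = 3 each). Sc5d, a sterol desaturase, averaged 79.6 and 79.2 FPKM in TMAO and Control cells and had the narrowest interval of the 12, from -0.08 to 0.09. Mvk, Pmvk, Idi1, Tm7sf2, Nsdhl, Hsd17b7 and Ebp had differences between -0.07 and 0.09. Over all 18, the mean level per length ran from 2.90 FPKM for Fdps and 2.93 FPKM for Dhcr7 to 120 FPKM for Msmo1. Dhcr7 was under Fdps by principal transcript length, at 6.05 against 8.84. Exons also overlap those of other annotated genes over 12.1% of their bases in Hmgcs1, 12.1% in Tm7sf2 and 9.22% in Idi1. In the SREBP escort gene Scap the overlap is 13.2%. Of the 50-base stretches of Idi1, 25.3% are also found in other genes, with 17.7% in Gm13502. The levels of these 4 genes are uncertain as well.

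**Figure D2:**
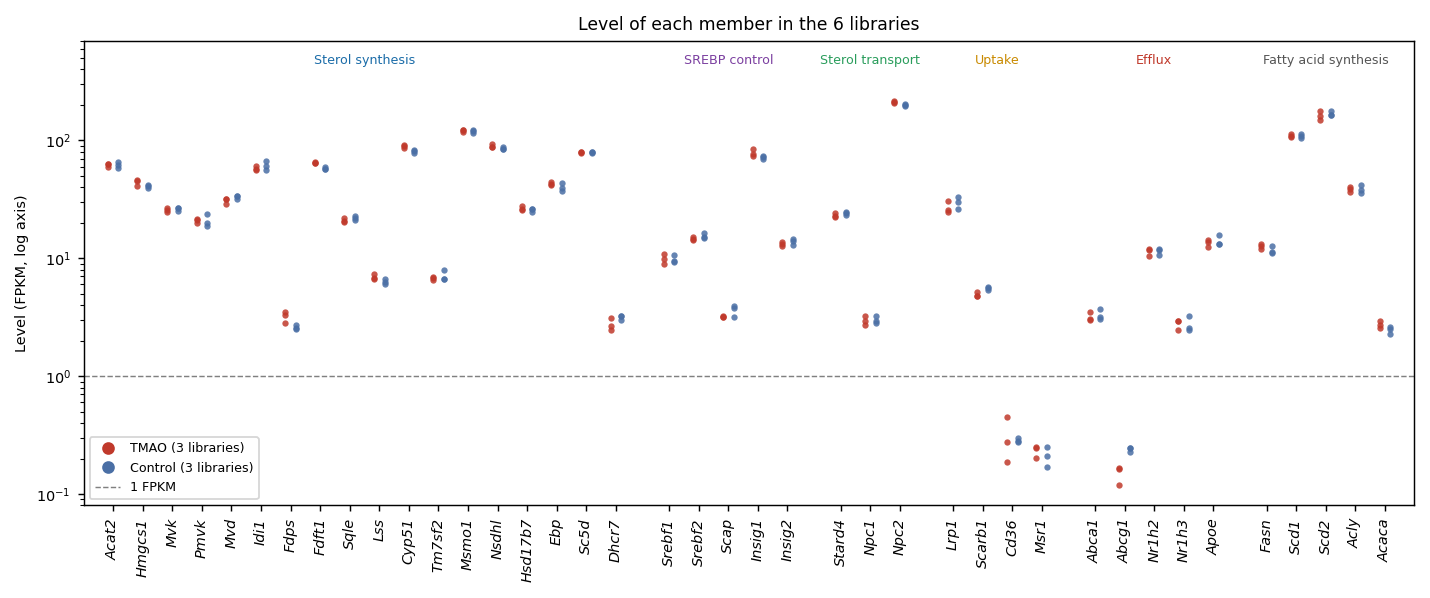
Level of each of the 40 members in FPKM on a log axis, with 1 point per library, TMAO left of Control, grouped by role. Npc2, Scd2, Msmo1 and Scd1 stand above 100 FPKM, and Cd36, Msr1 and Abcg1 stay under the dashed line at 1 FPKM in all 6 libraries.

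The 5 genes of SREBP control were all tested, none passed, and 1 difference was positive. Insig1 (chr5:28071363-28078662, plus strand) encodes the anchor that keeps Scap in the endoplasmic reticulum and is itself an SREBP target. It had 85.1, 73.4 and 77.0 FPKM in TMAO libraries, against 71.8, 73.8 and 68.9 FPKM in Control libraries. TMAO 1 stood apart and TMAO 2 lay inside the Control range. The difference was 0.13 (95% interval 0.0045 to 0.26, limma adjusted p = 0.367), and 0.0723 without TMAO 1. Scap had 3.16, 3.23 and 3.19 FPKM in TMAO libraries, against 3.77, 3.92 and 3.14 FPKM in Control libraries. The TMAO values were nearly equal and Control 3 lay just under them, with a difference of -0.13 (limma adjusted p = 0.545) that was -0.206 without Control 3 and -0.0827 without Control 2. Srebf2, the SREBP that mainly drives cholesterol synthesis, had 15.1, 14.6 and 14.4 FPKM in TMAO libraries, against 15.1, 16.3 and 14.8 FPKM in Control libraries. The groups overlapped, with a difference of -0.06 (limma adjusted p = 0.682). Srebf1, whose products drive fatty acid genes, averaged 9.83 FPKM in TMAO and in Control cells (difference -0.0018, limma adjusted p = 0.996). Insig2, the second anchor, averaged 13.2 FPKM in TMAO and 13.8 FPKM in Control cells.

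SREBP proteins bind sterol regulatory elements, usually beside sites for NF-Y, which binds CCAAT, and Sp1, which binds GC boxes. Promoters from RefSeq on GRCm38.p6 were found by symbol for 30 of the 40 members, 15 of them synthesis genes. The 250 bases before the RefSeq start were searched on both strands. The element TCACNCCAC was found in 1 member promoter, that of Hmgcs1, against 1.04% of 27025 promoters. The E-box CACGTG was found in 4 (Abca1, Hsd17b7, Insig1 and Sc5d), against 6.05% of all promoters and 9.01% of the promoters of tested genes. CCAAT was found in 13 of the 15 synthesis promoters (86.7%), against 37.4% of the promoters of tested genes. The GC box GGGCGG was found in 14 of the 15 (93.3%), against 61.9%. A match is a description of the letters and not a bound site. A promoter without a match to this 1 pattern is not shown to lack a sterol regulatory element.

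The promoters of Hmgcs1, Cyp51 and Insig1 are shown because these SREBP-regulated genes had positive differences and hold different letters. They were picked with their differences known, and none of the 3 passed the test. Of the 18 synthesis genes 11 had positive and 7 negative differences, against 60% positive over all genes tested. The SREBP target Stard4 had a negative difference. A response of SREBP targets was not tested. Capitals mark TCACNCCAC, CACGTG and CCAAT or its reverse complement ATTGG, and GC boxes are left in lower case. They lie at chr13:119690101-119690350 on the plus strand, chr5:4104698-4104947 on the minus strand and chr5:28071162-28071411 on the plus strand (GRCm38.p6), each read from 5′ to 3′ toward the gene. RefSeq starts Cyp51 and Insig1 further downstream than GENCODE, the source of the gene positions given here, so the last bases of both windows, with the CCAAT of Cyp51, lie inside the genes as GENCODE places them.
Hmgcs1: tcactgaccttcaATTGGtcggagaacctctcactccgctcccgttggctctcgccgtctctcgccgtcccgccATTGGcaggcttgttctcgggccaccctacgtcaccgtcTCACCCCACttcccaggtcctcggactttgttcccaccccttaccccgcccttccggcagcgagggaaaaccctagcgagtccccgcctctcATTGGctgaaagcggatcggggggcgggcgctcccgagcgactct
Cyp51: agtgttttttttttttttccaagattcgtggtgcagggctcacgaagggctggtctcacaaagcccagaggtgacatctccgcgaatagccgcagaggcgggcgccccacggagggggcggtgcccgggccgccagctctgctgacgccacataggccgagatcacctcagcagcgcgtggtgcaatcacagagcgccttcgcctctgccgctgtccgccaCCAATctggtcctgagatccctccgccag
Insig1: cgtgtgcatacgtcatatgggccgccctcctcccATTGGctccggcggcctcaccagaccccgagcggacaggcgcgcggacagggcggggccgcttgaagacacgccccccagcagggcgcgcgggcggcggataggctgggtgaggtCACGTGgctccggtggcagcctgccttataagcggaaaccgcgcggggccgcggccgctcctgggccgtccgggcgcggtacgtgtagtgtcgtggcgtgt
In Hmgcs1 the element starts at base -137 from the start, with ATTGG at -237, -176 and -45. Cyp51 has CCAAT at -29. Insig1 has the E-box at -101 and ATTGG at -216.

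Sterol transport inside the cell had 3 members, all tested. Npc2 (chr12:84754562-84773152, minus strand) is the soluble lysosomal protein that hands cholesterol to Npc1. It was the most abundant member by deposited FPKM, though Msmo1 came first at 361 against 339 for Npc2 by principal transcript length, and it had 213, 209 and 214 FPKM in TMAO libraries, against 198, 197 and 204 FPKM in Control libraries. All TMAO values lay above all Control values, but not with median-ratio size factors, and the difference was 0.09 (95% interval 0.0014 to 0.18, limma adjusted p = 0.372). Npc1, the membrane protein of the same lysosomal route, had 3.22, 2.96 and 2.74 FPKM in TMAO libraries, against 2.92, 3.24 and 2.81 FPKM in Control libraries. These values overlapped throughout, with a difference of -0.0067 (limma adjusted p = 0.979). Stard4, a cytosolic sterol carrier and SREBP target, had 24.4, 22.2 and 22.8 FPKM in TMAO libraries, against 24.6, 24.4 and 23.1 FPKM in Control libraries. The groups overlapped in Stard4 too, with a difference of -0.05 (limma adjusted p = 0.734).

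Of the 4 uptake receptors, 2 were tested and neither passed. Scarb1 (chr5:125277087-125341094, minus strand) encodes the HDL receptor SR-BI. It had 5.21, 4.80 and 4.76 FPKM in TMAO libraries, against 5.37, 5.70 and 5.56 FPKM in Control libraries. It was the tested member with all TMAO values under all Control values, although TMAO 1 came close to Control 1. The difference was -0.14 (95% interval -0.29 to 0.0032, limma adjusted p = 0.387), with means of 4.92 ± 0.251 FPKM in TMAO and 5.54 ± 0.168 FPKM in Control cells (SD, n = 3 each). Lrp1, a large receptor that takes up remnant lipoproteins and aggregated LDL, had 30.4, 24.5 and 25.7 FPKM in TMAO libraries, against 30.2, 32.9 and 26.2 FPKM in Control libraries. TMAO 1 lay inside the Control range and the libraries of each group spread widely, with a difference of -0.14 and a 95% interval of -0.38 to 0.09 (limma adjusted p = 0.614). Lrp1 had the widest interval of all tested members, and its difference was -0.23 without TMAO 1, -0.0808 without TMAO 2, -0.0688 without Control 2 and -0.227 without Control 3.

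The scavenger receptors Cd36 and Msr1, which bring oxidised LDL into macrophages, were near the limit of detection. Cd36 had 11, 26 and 15 recovered reads in TMAO libraries, against 15, 16 and 17 in Control libraries, or 0.306 ± 0.136 FPKM in TMAO and 0.285 ± 0.0093 FPKM in Control cells (SD, n = 3 each). Msr1 had 21, 25 and 24 reads in TMAO libraries, against 24, 20 and 18 in Control libraries. An exact two-sided permutation test gave p = 0.9 for Cd36 and p = 0.6 for Msr1, where 0.1 is the smallest that 3 libraries against 3 can give. The limma fit without a filter gave a log2 difference of 0.02 ± 0.094 (SE, adjusted p = 0.964) for Cd36 and 0.03 ± 0.0695 (SE, adjusted p = 0.893) for Msr1.

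The efflux group holds 2 exporters, the 2 LXR receptors and the lipoprotein Apoe, and 4 of the 5 genes were tested. None passed, 1 difference was positive and 3 were negative, with a median of -0.03. The median stayed negative in all 15 alternatives, but leaving out single libraries turned the sign of Apoe, Abca1 or Nr1h2. The 0.5 FPKM filter, the non-robust variance and the replicate block could not change this median. It covered 2 genes with a mean filter of 5 FPKM and 5 with no filter. The summed level was 32.3, 29.1 and 32.0 FPKM in TMAO libraries, against 31.0, 31.6 and 32.9 FPKM in Control libraries, and these sums overlapped.

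Abca1 (chr4:53030787-53159895, minus strand), which loads cholesterol onto lipid-poor apolipoprotein, had 3.504, 3.049 and 2.993 FPKM in TMAO libraries, against 3.175, 3.715 and 3.066 FPKM in Control libraries. The groups overlapped, with a difference of -0.05 (95% interval -0.24 to 0.14, limma adjusted p = 0.873). Apoe, a secreted acceptor of cholesterol, had 13.8, 12.5 and 14.4 FPKM in TMAO libraries, against 13.3, 13.2 and 15.6 FPKM in Control libraries. Control 3 was its highest and TMAO 2 its lowest library, with a difference of -0.04 (limma adjusted p = 0.864). Nr1h2, which encodes the widely expressed receptor LXR beta, had 11.9, 10.4 and 12.0 FPKM in TMAO libraries, against 11.8, 12.0 and 10.8 FPKM in Control libraries. The difference was -0.01 (limma adjusted p = 0.967), and it was 0.01 for Nr1h3, which encodes LXR alpha and averaged 2.76 FPKM in TMAO and 2.74 FPKM in Control cells.

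Abcg1 (chr17:31057675-31117988, plus strand), which moves cholesterol to HDL, was under the filter in all 6 libraries. It had 20, 19 and 13 reads in TMAO libraries, against 27, 25 and 30 in Control libraries. All TMAO values were under all Control values, with means of 0.149 ± 0.0264 FPKM in TMAO and 0.239 ± 0.0105 FPKM in Control cells (SD, n = 3 each). The exact two-sided permutation test gave p = 0.1, the smallest that it can give, and the limma fit without a filter gave a log2 difference of -0.11 ± 0.0628 (SE) and an adjusted p = 0.705. Abcg1 had the largest relative difference of the 40 members at -37.7%, on few reads.

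**Figure D3:**
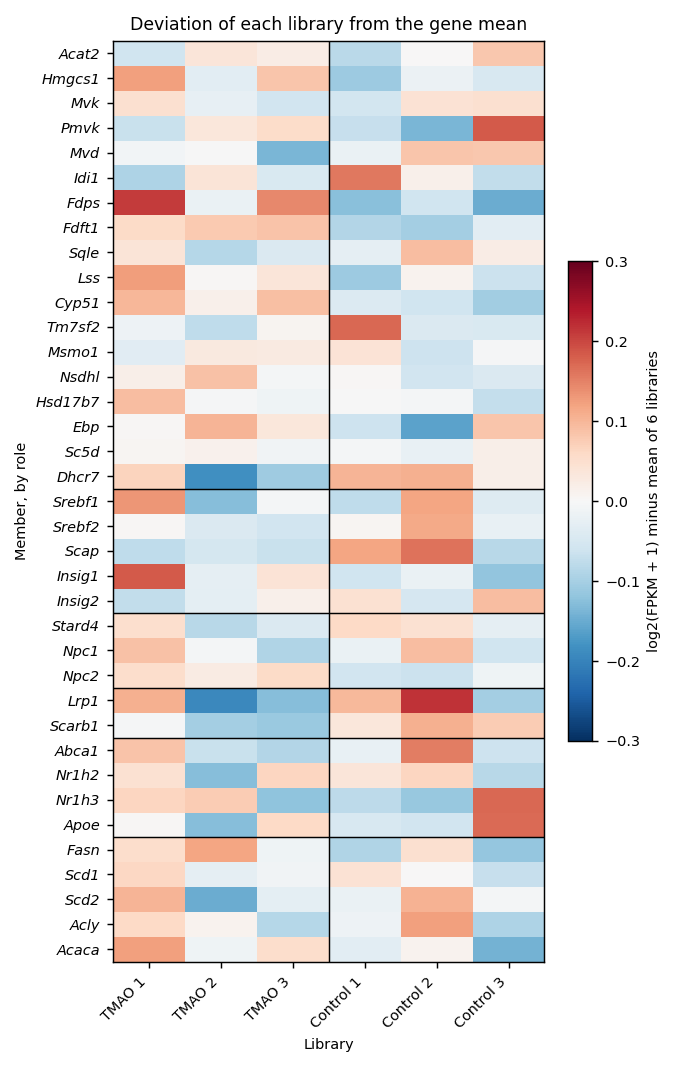
Deviation of each library from the mean of 6 libraries for the 37 tested members, in log2(FPKM + 1), with TMAO libraries left of the line and Control libraries right of it. Single cells of the map, such as Lrp1 in Control 2 and Fdps in TMAO 1, reach about as far as the differences between the groups.

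Fatty acid synthesis was represented by 5 enzymes, all tested, and none passed. Fasn (chr11:120805846-120824547, minus strand), the synthase that builds palmitate, had 12.6, 13.3 and 12.0 FPKM in TMAO libraries, against 11.3, 12.6 and 11.1 FPKM in Control libraries. Control 2 overlapped the TMAO range, and the difference was 0.10 (95% interval -0.04 to 0.25, limma adjusted p = 0.538). Acaca, the carboxylase that supplies malonyl-CoA, had 2.92, 2.57 and 2.74 FPKM in TMAO libraries, against 2.52, 2.63 and 2.26 FPKM in Control libraries. Control 2 again lay inside the TMAO range, with a difference of 0.11 (limma adjusted p = 0.613) that was 0.0644 without Control 3. In Acaca 30.4% of the 50-base stretches are also found in other genes, mostly the model Gm5182, so its level is uncertain.

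Desaturases were the most abundant of the 5. Scd2 (chr19:44293674-44306864, plus strand), which puts a double bond into saturated fatty acids, had 178, 149 and 162 FPKM in TMAO libraries, against 163, 178 and 165 FPKM in Control libraries. TMAO 1 and Control 2 were alike and the difference was -0.05 (limma adjusted p = 0.787). Scd1, a second desaturase, averaged 110 ± 3.58 FPKM in TMAO and 108 ± 4.25 FPKM in Control cells (SD, n = 3 each). Acly, which makes cytosolic acetyl-CoA from citrate, averaged 38.3 FPKM in TMAO and 38.6 FPKM in Control cells. Their differences were 0.02 and -0.01.

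Libraries also differed within each group. TMAO 1 was the highest TMAO library for 20 of the 37 members (54.1%), against 50.7% of all genes. Control 2 was the highest Control library for 19 of the 37 (51.4%), against 41.7% of all genes, and for 4 of 5 SREBP control genes and 4 of 5 fatty acid genes. For the 36 members with whole reads and a mean of at least 100 of them, the SD within groups beyond counting noise was a median of 5.01% of the level, against 4.58% for the 9252 tested genes with as many reads. Lrp1 had the highest value of the members at 11.5%.

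**Figure D4:**
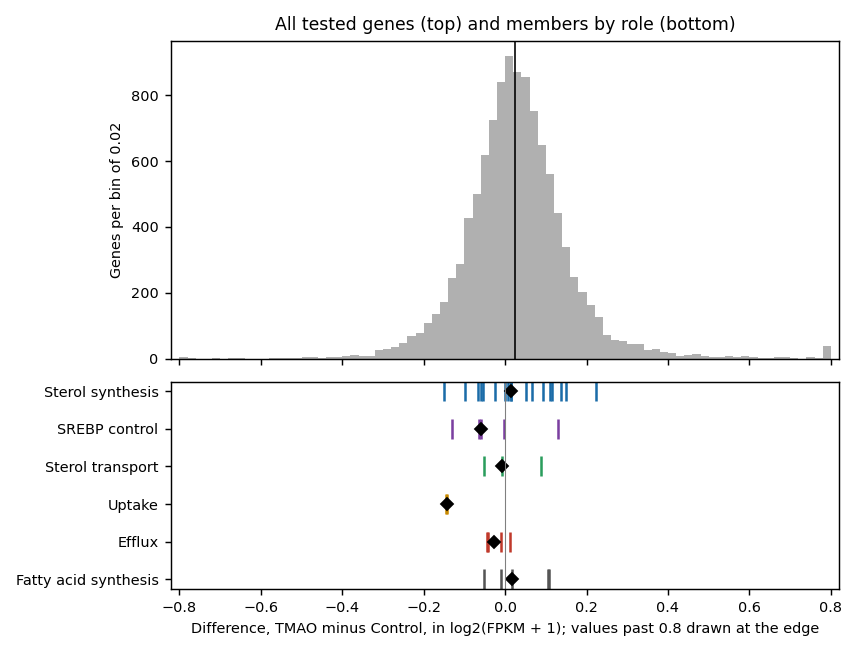
Top, differences of all 11062 tested genes in log2(FPKM + 1), TMAO minus Control, with their median as a line. Bottom, the tested members by role, with 1 tick per gene and a diamond at the role's median. The members lie in the middle of the distribution of all genes.

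Beyond the members, 76 further genes of these pathways were read from the same fit, and 0 of the 64 tested passed. Their differences were positive for 42 (65.6%), against 60% of all genes, and negative for 22, with a median of 0.03 against 0.02 for all genes. All 3 TMAO libraries lay above the Control libraries for 12 (18.8%), against 12.4% of all genes, and below for 2 (3.12%), against 6.23%. In limma's unadjusted test 10 had p under 0.05 (15.6%), against 13.1% of all genes. Among 25 tested genes of sterol and lipoprotein handling, Ch25h, which makes the oxysterol ligand 25-hydroxycholesterol, had 7.37, 6.83 and 7.41 FPKM in TMAO libraries, against 5.81, 6.13 and 4.20 FPKM in Control libraries. The groups did not overlap and Control 3 was the lowest library, with a difference of 0.38 (95% interval 0.13 to 0.62, limma adjusted p = 0.211). Without Control 3 the Ch25h difference was 0.235. Cyb5r3, a reductase that supplies electrons to sterol and fatty acid desaturation, and Pltp, a phospholipid transfer protein, had differences of 0.12 and 0.17.

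Among 21 tested genes of fatty acid synthesis and storage, Plin2, which coats lipid droplets, had 50.66, 49.98 and 53.13 FPKM in TMAO libraries, against 45.87, 46.67 and 45.96 FPKM in Control libraries. All TMAO values were higher, with a difference of 0.15 (95% interval 0.05 to 0.24, limma adjusted p = 0.207). Elovl1, an elongase of long fatty acids, and Agpat2, an acyltransferase of glycerolipid synthesis, had differences of 0.11 and 0.13. Among 18 tested genes of fatty acid oxidation, the mitochondrial enzymes Acadl, Echs1 and Cpt2 had differences of 0.12, 0.14 and 0.11, and that of Cpt2 was 0.0653 without Control 2. None of these passed, and the smallest limma adjusted p among them was 0.277, for Acadl.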

How the data were processed

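The authors deposited 1 table for each library, which pairs gene IDs and symbols with FPKM values, per the file headers, where the Control 1 header spells the unit PKM. RNA was extracted with Trizol and made into stranded poly(A) libraries, per the labels' protocols. The submitters' processing notes name Trimmomatic, HISAT2, Cufflinks and HTSeq, and mm10 as the build. The sources used here give no versions, no annotation release and no strand setting for the counting. It is therefore not known whether reads of overlapping genes on opposite strands were told apart.

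Group and replicate number came from each library's title. The 3 TMAO libraries were compared with the 3 Control libraries with limma 3.58.1 in R 4.3.3, with trended, robust variance, on log2(FPKM + 1), over the genes that reached 1 FPKM in 3 or more libraries. P-values were adjusted by Benjamini-Hochberg over all these genes with a threshold of 0.05. Differences on this scale understate changes of low genes. Genes under the filter were compared by an exact permutation test (Python 3.11.15, scipy 1.17.1). The fit was checked on simulated reads with set differences larger than that of any tested member. That check does not speak to differences as small as those of the members.

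Reads were recovered from FPKM, library total and GENCODE M21 exon lengths. Of 25885 annotated identifiers, 25499 (98.5%) gave whole reads in all 6 libraries to within 0.01 reads. Intervals are for the difference between the group means and rest on limma's estimate of the variation between libraries. They do not give the range of single libraries.

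The members and all lists were chosen with earlier results of these data known. The rule for genes given library by library took the 3 smallest unadjusted p-values in each role, and Hmgcs1, Sqle, Dhcr7 and the 3 members under the filter were added outside it, after their values were seen. The rule for the other pathway genes took the 3 smallest in each list. The alternatives changed scaling, filter, pseudocount, variance model, pairing and unit, and left out each library in turn.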

Additional observations from a re-analysis of the deposited data

How the results depend on the processing

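No member was called under any of the 15 alternatives, and the smallest limma adjusted p of a member over all of them was 0.132. The number of genes called over the whole table was 20. It was 0 with no filter, 50 with a mean filter of 5 FPKM and 97 with voom on recovered reads. It was 11 to 56 when 1 library was left out (11 without Control 3, 12 without TMAO 1 and 56 without TMAO 2). In limma's unadjusted test 5 members had p under 0.05 (13.5%, against 13.1% of all genes), and the count was the same with no filter. That count of members was 2 without TMAO 3, 2 without Control 1 and 3 with the replicate block. It was 4 with median-ratio size factors and with a mean filter of 5 FPKM. It was 6 with a filter of 0.5 FPKM, with voom, and without TMAO 2, Control 2 or Control 3. For the alternatives the share of all genes was not counted, so these counts of members cannot be set beside it. The cause of these shifts was not tested. The synthesis median of 0.0152 was -0.0235 with median-ratio size factors and -0.0011 to 0.0343 with 1 library left out, negative without Control 2. Over all genes the median of 0.0247 was -0.0086 with median-ratio size factors. The efflux median ran from -0.062 to -0.00525 over all alternatives. Of 414 values for single genes, 405 kept their sign and their side of the threshold and 9 reversed, all with 1 library left out: Apoe ran from -0.0836 to 0.0313, Scd2 from -0.115 to 0.0108, Nr1h2 from -0.0555 to 0.0498, Npc1 from -0.0519 to 0.0376 and Abca1 from -0.1 to 0.0194. Changing the filter, dropping the robust variance or adding the replicate block cannot change a gene's log2 difference. Under those settings only the side of the threshold could move, so the 405 include values whose sign was fixed. Same-numbered libraries did not deviate together (r of -0.0858, -0.104 and 0.0555 across genes). With the replicate number as a block 22 genes were called, no member among them, and the smallest limma adjusted p of a member was 0.333. By the length of the principal transcript, an alternative added after the data were seen, mean levels were 361 for Msmo1, 339 for Npc2, 17.6 for Scarb1, 8.84 for Fdps and 6.05 for Dhcr7. Members under 1 FPKM rest on 11 to 30 reads, which limits what can be said of them.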
